A study of Homo sapiens with 12 samples.

Results

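Substrate adaptors of cullin ubiquitin ligases and ubiquitin-specific proteases (USPs), which act on opposite sides of protein ubiquitination, were examined for m6A peaks after FTO knockdown in K1 papillary thyroid cancer cells. Members were taken by gene name from 6 deposited peak lists: names starting with FBXO, FBXW, FBXL, KLHL, KBTBD or BTBD were counted as adaptors, and names made of USP and a digit as USP genes. FBXO2 and FBXW11 match these names and were left out, because the lists annotate them to protein processing in the endoplasmic reticulum, Wnt signaling or the cell cycle. This gave 106 genes of the 7623 with a listed peak, 70 adaptors and 36 USP genes. The name USP6NL is among the 36 by its letters, although it encodes a GTPase-activating protein of RAB GTPases and not a protease.

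An F-box protein holds a substrate and binds SKP1, which joins it to the scaffold CUL1 in an SCF ligase. The FBXW proteins carry WD40 repeats, the FBXL proteins carry leucine-rich repeats, and the FBXO proteins carry other substrate-binding parts. A KLHL or KBTBD protein binds the scaffold CUL3 through its BTB domain and its substrate through Kelch repeats, while BTBD is a looser group of BTB proteins, not all of which are known as ligase adaptors. USPs are cysteine proteases that remove ubiquitin from substrates, so that a protein marked by a ligase can be spared. m6A is written on mRNA by the METTL3-METTL14 complex, and FTO is a demethylase that can remove it.

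Groups were defined by the siRNA. The si-FTO group received siRNA against FTO and the si-NC group a negative control siRNA, and no other treatment is named in the labels. Each group had 3 m6A IP libraries and 3 input libraries, all from the single established line K1, and no source used here states whether they were separate cultures. All comparisons are therefore set against the spread between these libraries, which can be technical in part. The study lists a pair of FTO siRNAs, and the sources do not tie either of them to a library. Their sense strands are shown because they define the si-FTO group, 5′ to 3′, with the last 2 bases, TT, in capitals.
si-FTO-1: tcaccaaggagactgctatTT
si-FTO-2: ctagggttttgcttccagaaTT

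MeRIP-seq pulls down RNA fragments with an anti-m6A antibody (the IP), and a peak is an interval where the IP is enriched over the input. The si-FTO lists held 7921 to 8454 peaks in 5263 to 5588 genes, and the si-NC lists held 8429 to 8999 peaks in 5628 to 5954 genes, with positions in hg19. The numbers of genes did not overlap between the groups, while those of peaks did. Depth per peak is unknown, because the lists were used without reads. The authors' FDR had medians of 41.15% to 47.2% over the si-FTO lists and 47.45% to 99.6% over the si-NC lists. More genes and higher median FDRs thus went with the si-NC group, and the part of peak calling in the results was not tested. A listed peak shows that a transcript was present, while the lack of one does not show its absence. Of 12 thyroid and epithelial marker genes, FOXE1 and KRT8 had a peak in all 6 lists and the other 10, among them PAX8, NKX2-1, TG and EPCAM, had none. Of 7 markers of other cells, only the collagen gene COL1A1 had a peak, in all 6 lists.

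Fewer cullin adaptor genes carried a listed m6A peak in the si-FTO group, and the USP genes did not show such a gap. Adaptor genes with a peak numbered 43, 45 and 49 in si-FTO replicates 1, 2 and 3, and 59, 55 and 56 in si-NC replicates 1, 2 and 3. The groups did not overlap, with a mean of 45.7 ± 3.06 in si-FTO and 56.7 ± 2.08 in si-NC (SD, n = 3 libraries each). All genes with a peak numbered 5437 ± 164 in si-FTO and 5740 ± 185 in si-NC (SD, n = 3 each), so the lists as a whole were also shorter in si-FTO. As a share of the genes in a list, adaptors made up 0.817%, 0.805% and 0.898% in si-FTO and 1.05%, 0.977% and 0.941% in si-NC, again without overlap. USP genes numbered 28, 28 and 26 in si-FTO and 30, 27 and 29 in si-NC. Their share of a list was 0.476% to 0.532% in si-FTO and 0.48% to 0.532% in si-NC, which overlapped almost in full. Because the members were a chosen set, these counts were not tested.

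Most members were listed in both groups. Of the 70 adaptors, 34 (48.6%) had a peak in all 6 lists, and of the 36 USP genes, 21 (58.3%), beside 49% of all genes. A further 16 adaptors and 8 USP genes were listed in both groups but not in every library. Of the remaining 20 adaptors, 4 were listed only in si-FTO libraries and 16 only in si-NC libraries, where all genes were also split towards si-NC, with 9.71% only in si-FTO libraries and 15.1% only in si-NC libraries. The 4 were KLHL42, in all 3 si-FTO lists, and BTBD10, BTBD6 and KBTBD11, each in 1 si-FTO list. The remaining 7 USP genes were USP13 and USP37, each in 1 si-FTO list, and USP14, USP3, USP46, USP47 and USP6, each in 1 si-NC list. USP14, which trims ubiquitin chains at the proteasome, was among these. USP6 shares much of its sequence with USP32, so reads can be assigned to either, and its single listing is uncertain.

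One adaptor had a peak in every si-FTO list and no si-NC list, and 9 adaptors had the opposite pattern. KLHL42 alone made up 1.43% of adaptors in the si-FTO direction, where 2.28% of all genes had that pattern. The 9 adaptors listed only in si-NC libraries, and in all 3 of them, made up 12.9%, where 2.75% of all genes had that pattern. No USP gene had either pattern, and with 36 USP genes a count of 0 is near the shares of all genes. For any single gene the exact two-sided permutation p of such a split is 0.1, and with 3 libraries a group no smaller value can be reached, so no gene can pass a threshold of 0.05. The 9 were the F-box genes FBXL14, FBXO27, FBXO28, FBXO42, FBXO48 and FBXW4 and the BTB genes BTBD9, KLHL17 and KLHL28. By family they were 4 of 25 FBXO, 1 of 4 FBXW, 1 of 10 FBXL, 2 of 19 KLHL, 0 of 5 KBTBD and 1 of 7 BTBD genes. The F-box members thus had 0 of 39 in si-FTO alone and 6 in si-NC alone, and the BTB members 1 and 3 of 31. These counts depend on the rule for members. FBXW11, left out by its annotation, and BTRC, an F-box gene outside the name rule, were listed in every si-FTO library and no si-NC library.

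**Figure D1:**
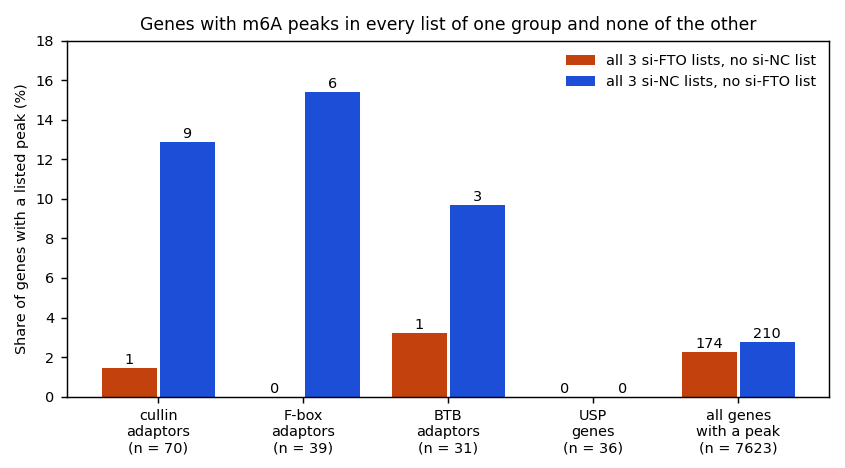
Bars give the share of genes, in percent of those with a listed peak, that had a peak in all 3 si-FTO lists and no si-NC list (orange) or the reverse (blue), with the number of genes above each bar. The blue bar of the cullin adaptors stands at 12.9%, beside 2.75% for all genes. Both USP bars are at 0, which with 36 genes is near the shares of all genes.

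The number of adaptors with the si-NC pattern varied with the peaks and the rule used. For equal list length, every list was cut to the 7921 peaks with the highest deposited score, which is based on the p-value. Of the 9, 8 kept the pattern (all but KLHL17), where 2.45% of all genes had that pattern and 2.69% the si-FTO one. With the weakest peaks of each list left out, so that the upper 75 percent by fold remained, 6 of the 9 kept it, namely BTBD9, FBXL14, FBXO27, FBXO28, FBXO42 and FBXO48, beside 3.54% of all genes. When 2 of 3 libraries were enough, against none on the other side, the si-NC count was 12, with FBXL17, FBXO4 and KLHL9 in addition, beside 6.53% of all genes. By that rule KLHL42 was still the one adaptor of the si-FTO direction, beside 4.91% of all genes. KLHL9 encodes a CUL3 adaptor that acts in mitosis.

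**Figure D2:**
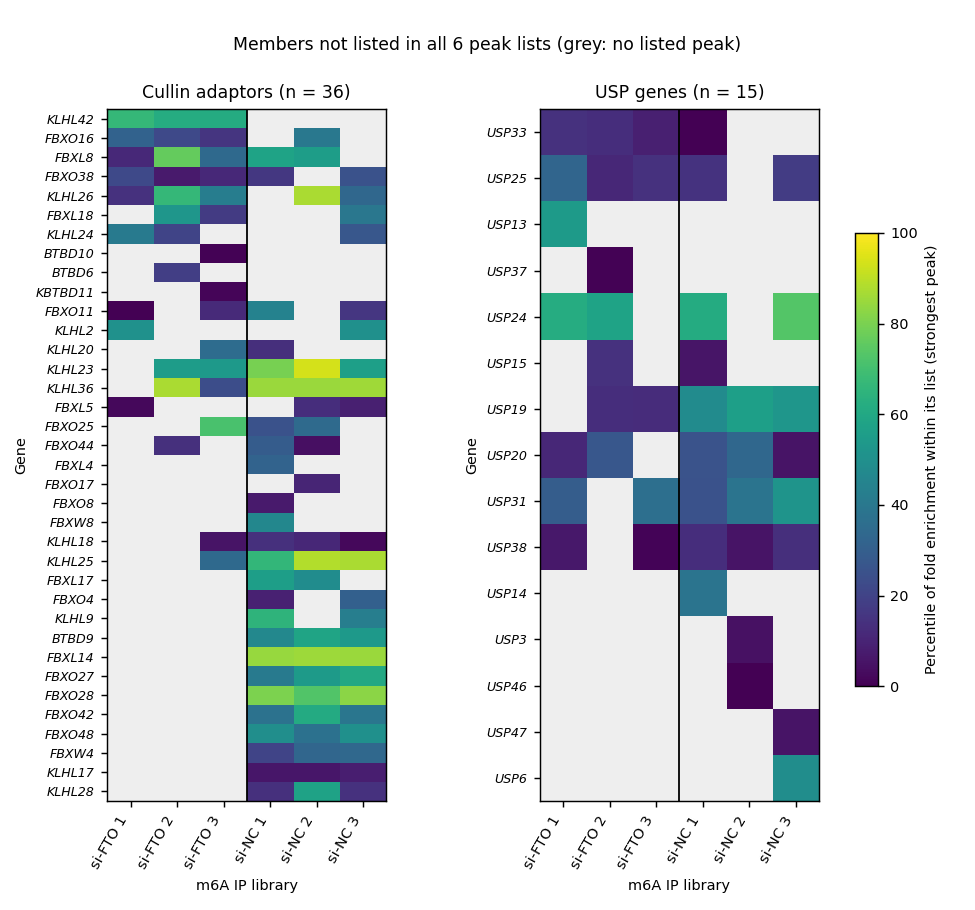
Each row is a member that was not listed in all 6 lists, each column an IP library, and color gives the percentile of fold enrichment of its strongest peak within that list, with grey for no listed peak. At the bottom of the adaptor panel, 9 genes from BTBD9 to KLHL28 are grey in the 3 si-FTO columns and colored in the 3 si-NC columns. The 15 USP genes lack such a block, where 0 of 36 USP genes is near the share of all genes.

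Strength was read within each list, because fold enrichments were not scaled across lists. The percentile of a peak is its rank in fold enrichment of IP over input among all peaks of its own list. FBXL14, whose protein targets the transcription factor SNAI1 for degradation, had the strongest peaks of the 9 adaptors by fold enrichment. It was listed at 2 sites on chromosome 12, 26062 bp apart, and neither site had an interval in any si-FTO list. The interval from 1702039 to 1703331 was the same in the 3 si-NC lists, at fold enrichments of 10.99, 12.6 and 12.06 and percentiles 79.4, 85.2 and 85 in si-NC replicates 1, 2 and 3. The other site, from 1675159 to 1675976, stood at folds of 12.38, 10.27 and 11.27 and percentiles 84.6, 75.8 and 82.2. Every FBXL14 interval thus lay above percentile 75 of its list by fold enrichment. By rank of the deposited score within each list, the site from 1702039 stood at percentiles 47.3, 71.1 and 64.2 in si-NC replicates 1, 2 and 3. The site from 1675159 stood at score percentiles 87.4, 67.1 and 85.9. The nearest interval of any si-FTO library lay 36647 bp away and was listed under WNT5B.

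FBXO28 was the other gene of the 9 with strong peaks by fold enrichment. Its interval on chromosome 1, from 224345054 to at most 224347520, stood at folds of 11.17, 9.8 and 11.41 and percentiles 80.2, 73.0 and 82.8 in si-NC replicates 1, 2 and 3. It began at the same base in each si-NC list and ended at different ones, with lengths of 1717 to 2467 bp. The nearest si-FTO interval, 23390 bp away, was listed under DEGS1. The deposited score, which is based on the p-value, was also ranked within each list. FBXO28 stood at score percentiles 82.7, 48.1 and 54.3 in si-NC replicates 1, 2 and 3. Its FDRs were 28.25%, 100% and 45.22%, where the median FDR of the si-NC replicate 2 list was 99.6%.

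By fold enrichment, the middle of the range held FBXO42, FBXO27, FBXO48 and BTBD9. FBXO42, an F-box protein known to bind p53, had an interval on chromosome 1 that ended at 16578280 in each si-NC list, at percentiles 37.5, 40.3 and 39.2, and a second site in si-NC replicate 2 at 61.0. FBXO27, a sugar-binding F-box protein that recognizes glycoproteins, had the same interval from 39522504 to 39522893 on chromosome 19 in each si-NC list, at percentiles 41.2, 54.4 and 60.5. By the deposited score it was weak, at score percentiles 12.1, 17.0 and 16.1 in si-NC replicates 1, 2 and 3, with FDRs of 77.41%, 100% and 59.45%. For FBXO48 the interval from 68691972 to 68692310 on chromosome 2 stood at percentiles 49.6, 13.4 and 50.4, with a second site in si-NC replicate 2 at 37.1. Of these intervals that of FBXO48 varied most, with si-NC replicate 2 low. BTBD9, a BTB gene linked to restless legs syndrome, had no site common to the si-NC lists. Its intervals on chromosome 6 lay from 38138893 to 38142958 in si-NC replicates 1 and 3 and from 38136227 to 38137088 in si-NC replicate 2, so that its pattern holds by gene and not by site.

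The weakest of the 9 by fold enrichment were FBXW4, KLHL28 and KLHL17. FBXW4, known from split-hand/foot malformation, had the interval from 103454138 to 103454743 on chromosome 10 at percentiles 20.7, 33.2 and 33.9. KLHL28 ended at 45398394 on chromosome 14 in each si-NC list, at percentiles 14.0, 28.6 and 14.4, and had a second site at 57.7 in si-NC replicate 2 and a weaker one in si-NC replicate 3. KLHL17, an actin-binding Kelch protein known from neurons, stood at percentiles 5.91, 5.97 and 8.4 for the interval from 900343 to 901099 on chromosome 1. KLHL17 lay near the bottom of its lists by fold enrichment. It was the gene lost at equal list length, where peaks were kept by score and not by fold. KLHL42, a CUL3 adaptor for the microtubule-severing protein katanin in mitosis, was the single adaptor of the si-FTO direction. Its interval from 27944641 to 27945076 on chromosome 12 was the same in the 3 si-FTO lists, at folds of 8.68, 8.02 and 8.1 and percentiles 66.7, 62.0 and 61.5.

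Counted by site, the split had the same direction, largely through the same genes. Intervals of the 6 lists that shared at least 1 bp were joined into 12995 regions, of which 117 held adaptor intervals and 63 USP intervals, and no member region held an interval listed under a gene outside the set. Of the 117 adaptor regions, 1 was listed in the si-FTO group alone, in each of its libraries, beside 2.92% of all regions. The opposite pattern was held by 11, beside 3.2% of all regions. Apart from regions of FBXO21 and KBTBD8, these 11 belonged to the adaptor genes named above. The counts by gene and by site are therefore not independent. At equal list length, and in the upper 75 percent by fold, 8 adaptor regions had the si-NC pattern. The share of all regions was not counted in these settings, so the 8 cannot be set beside it. Of the USP regions, 2 had the si-FTO pattern and 1 the si-NC pattern. With a peak in at least 2 of 3 libraries against none, the adaptor regions were 4 in si-FTO alone, beside 7.06% of all regions, and 17 in si-NC alone, beside 7.99%. Within the si-NC lists, the 11 adaptor regions stood at a median percentile of 40.9 (5.91 to 85.2), beside 41.2 for all 416 regions of that pattern. They were thus placed in their lists much as other regions of the pattern. Adaptor regions in all 6 lists stood at a median of 59.3, USP regions at 58.0 and all such regions at 64.4.

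**Figure D3:**
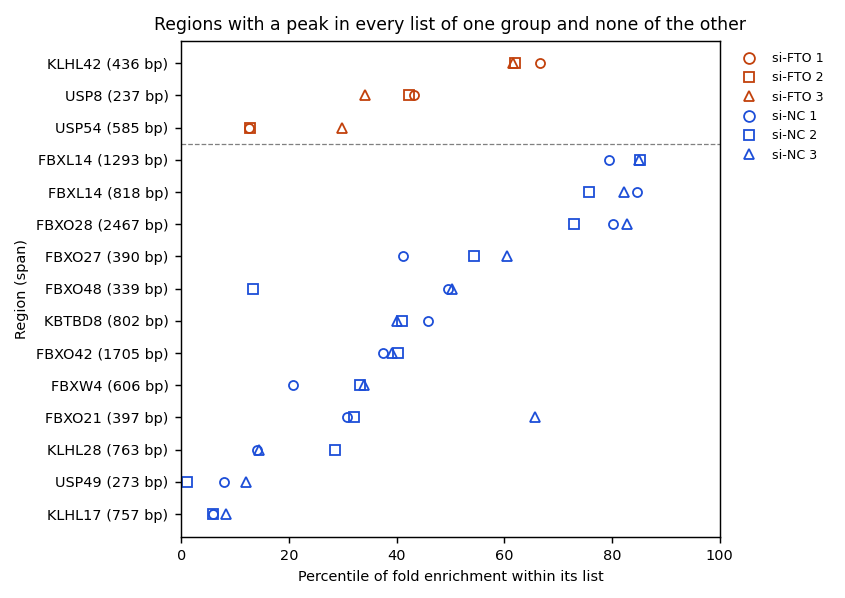
Each row is a member region with a peak in the 3 lists of a single group, with its span in bp, and each symbol is the percentile of fold enrichment in one library. The 3 si-FTO regions are above the dashed line and the 12 si-NC regions below it, where both FBXL14 regions and that of FBXO28 stand at percentile 73.0 or above.

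In some member genes a site was listed in one group alone while another site was listed in all 6 lists. FBXO21 had a region from 117593024 to 117593420 on chromosome 12 in the si-NC lists alone, at percentiles 30.7, 32.0 and 65.7. It was weak by the deposited score, at score percentiles 7.90, 0.656 and 36.8 in si-NC replicates 1, 2 and 3. A second FBXO21 region, from 117583146, was listed in si-NC replicates 1 and 3 and in no si-FTO list. The third, from 117628023 to 117628300, was listed in all 6, at percentiles 70.6, 81.3 and 72.8 in si-FTO and 70.6, 82.8 and 78.0 in si-NC. KBTBD8, a CUL3 adaptor known from neural crest specification, lacked in si-FTO the region on chromosome 3 from 67058346 to 67059147, which stood at percentiles 45.9, 40.9 and 40.0 in si-NC. Its other region was listed in all 6 lists and stood lower in si-FTO, as given with the shared regions. In USP49, known for removing ubiquitin from histone H2B, a weak region from 41839302 to 41839574 on chromosome 6 was listed in si-NC alone, at percentiles 7.93, 1.06 and 12. USP8, an endosomal protease that spares receptors such as EGFR from degradation, had the reverse. Its region from 50788045 to 50788281 on chromosome 15 was listed in si-FTO alone, at percentiles 43.2, 42.4 and 34.2. The USP54 region from 75289085 to 75289669 on chromosome 10 was also listed in si-FTO alone, at percentiles 12.5, 12.8 and 29.9.

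Among regions listed in all 6 lists, more adaptor sites stood lower than higher in the si-FTO lists by fold enrichment, while by score their share was not above that of all regions. Of 40 such adaptor regions, 6 had all 3 si-FTO percentiles above the si-NC ones (15%, beside 16.9% of all 4737 shared regions) and 11 had them all below (27.5%, beside 14.6%). Of 24 USP regions, 4 were higher in si-FTO and 2 were higher in si-NC. The median difference of group means, si-FTO minus si-NC, was -4.86 percentile points in adaptor regions, 0.03 in USP regions and 0.08 in all shared regions. Each of these patterns without overlap has a two-sided exact permutation p of 0.1. With the percentile of the score in place of that of fold enrichment, 3 of 40 adaptor regions were higher in si-FTO, beside 15.1% of all shared regions, and 9 were higher in si-NC, a smaller share than the 27.4% of all shared regions. The USP counts by score were 2 of 24 higher in si-FTO and 6 higher in si-NC, the other order than by fold enrichment and also a smaller share in each direction than in all shared regions.

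The largest difference towards si-NC was in KBTBD8, at percentiles 36.7, 42.7 and 32.7 in si-FTO and 69.4, 61.0 and 89.9 in si-NC for the interval from 67053619 to 67054733, a difference of -36.1 points. Both listed regions of KBTBD8 were therefore low or unlisted in si-FTO. FBXO33, an F-box protein known to bind YBX1, stood at 23.9, 5.19 and 9.06 in si-FTO and 53.6, 55 and 36.2 in si-NC (chromosome 14, from 39870380 to 39871065). FBXO3 stood at 33.2, 52.8 and 47.0 in si-FTO and 76.3, 54.2 and 66.0 in si-NC, so its groups nearly met. USP35 was the USP region with the largest difference in this direction, at 71.1, 50.1 and 63.0 in si-FTO and 80.4, 88.2 and 83.7 in si-NC (chromosome 11, from 77920494 to 77921790). Others of this direction included FBXL7, BTBD7, KLHL11, KBTBD2, KLHL29, USP9X, one region of FBXL19 and one of FBXO5.

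In the direction of si-FTO the largest difference was in BTBD2, a BTB protein known to bind topoisomerase I. It stood at percentiles 70.3, 77.9 and 92.3 in si-FTO and 35.2, 11.7 and 64.7 in si-NC, a difference of 43.0 points with a wide spread in both groups (chromosome 19, from 2015296 to 2015702). KLHL15, a CUL3 adaptor for a regulatory subunit of the phosphatase PP2A, stood at 65.2, 48.3 and 57.5 in si-FTO and 37.9, 16.8 and 37.5 in si-NC. KLHL21, which acts with CUL3 on Aurora B in mitosis, stood at 46.5, 63.4 and 36.5 in si-FTO and 25.6, 35.6 and 28.1 in si-NC, and was also close to overlap. USP34, known to act on AXIN in Wnt signaling, stood at 54.1, 56.5 and 49.2 in si-FTO and 28.7, 38.7 and 36.6 in si-NC. USP53, FBXL12 and a region each of USP49 and USP8 were also higher in si-FTO, by 9.87, 4.19, 12.4 and 0.919 points. The USP8 groups nearly met, at percentile 98.20 in si-FTO replicate 2 and 98.15 in si-NC replicate 1, and their folds overlapped.

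**Figure D4:**
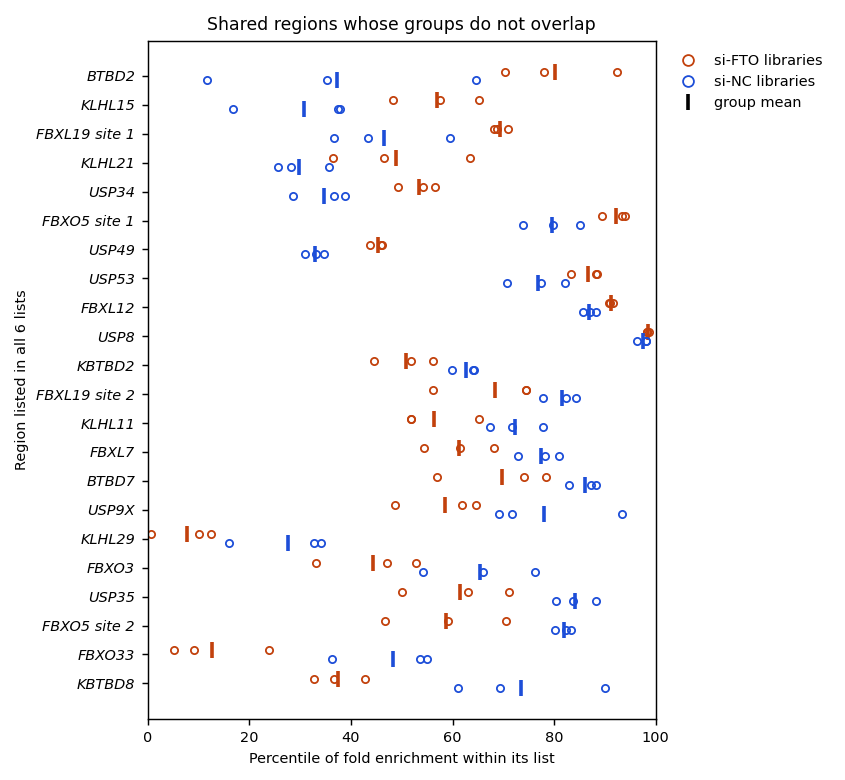
Each row is a member region listed in all 6 lists whose si-FTO (orange) and si-NC (blue) percentiles of fold enrichment do not overlap; circles are libraries and bars are group means. Of the 22 regions drawn, 10 are higher in si-FTO, from BTBD2 at 43.0 points to USP8 at 0.919, and 12 are higher in si-NC, down to KBTBD8 at -36.1.

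FBXO5 and FBXL19 had shared sites that differed in opposite directions. FBXO5 encodes EMI1, an inhibitor of the anaphase-promoting complex, a ligase of the cell cycle. Its site from 153296042 to 153296756 on chromosome 6 had folds of 18.44, 16.93 and 14.58 in si-FTO and 9.94, 11.04 and 12.07 in si-NC, at percentiles 94, 93.3 and 89.4 in si-FTO and 73.9, 79.7 and 85.1 in si-NC. The site from 153304369 to 153304740 had folds of 6.61, 7.69 and 9.31 in si-FTO and 11.16, 11.71 and 11.57 in si-NC, at percentiles 46.6, 59.0 and 70.5 in si-FTO and 80.1, 82.4 and 83.4 in si-NC. The first site was thus the stronger one in each si-FTO list, and in si-NC the order was reversed in replicates 1 and 2 and not in replicate 3. Both intervals had the same borders in all 6 lists and lay 7612 bp apart. In FBXL19, an F-box protein with a CXXC domain that binds CpG-rich DNA, the site from 30939066 to 30939284 on chromosome 16 stood at 68.2, 70.9 and 68.8 in si-FTO and 43.3, 36.6 and 59.5 in si-NC. Its site from 30958373 to 30960104 stood at 56.1, 74.4 and 74.5 in si-FTO and 84.3, 77.7 and 82.4 in si-NC. These were the 2 adaptor genes with shared regions without overlap in both directions, and no USP gene had such a pair.

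**Figure D5:**
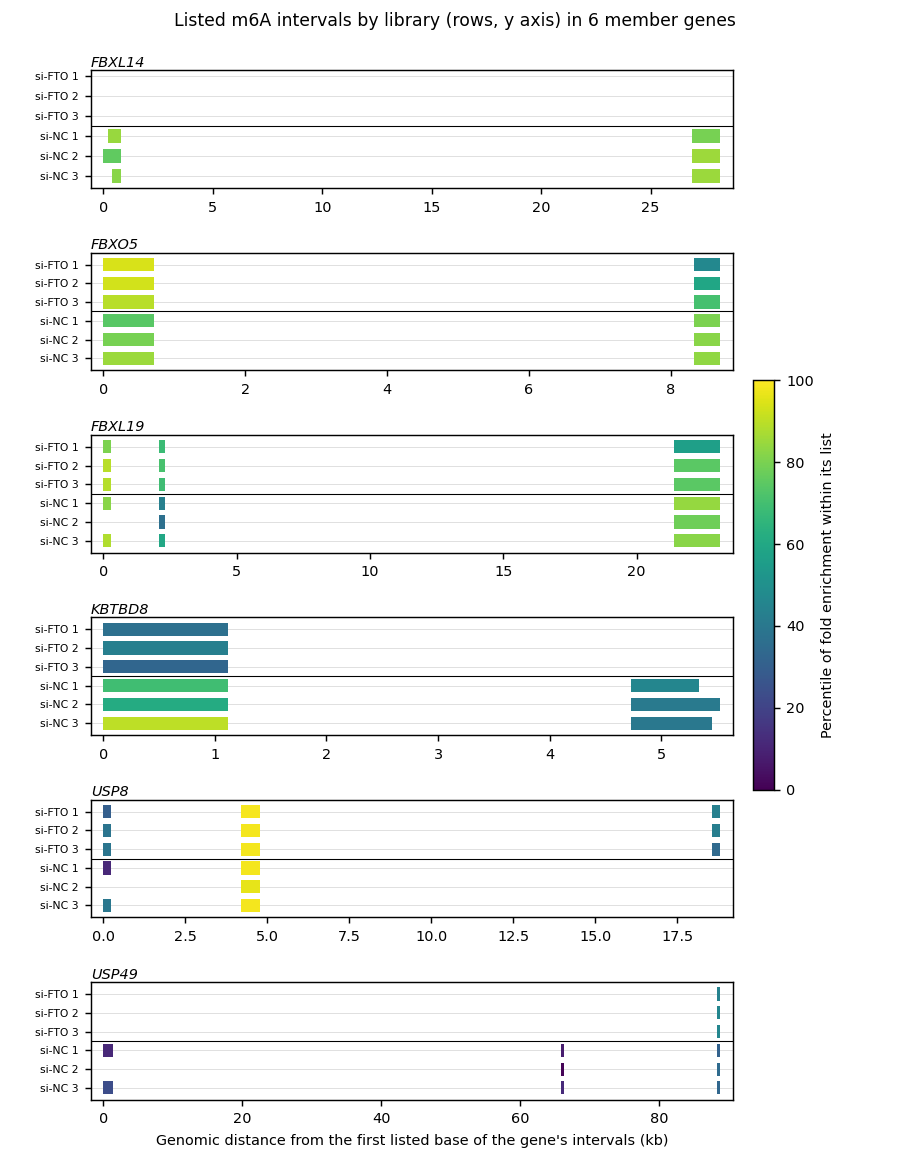
Listed intervals of FBXL14, FBXO5, FBXL19, KBTBD8, USP8 and USP49 are drawn by library against the genomic distance in kb from the first listed base of each gene, with color for the percentile of fold enrichment. FBXL14 has intervals in the 3 si-NC rows alone, KBTBD8 has 1 of its 2 sites in those rows alone, and USP8 has 1 of its 3 sites in the si-FTO rows alone.

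The strongest m6A peaks of the members were shared by both groups. FBXW7, a tumor suppressor that targets cyclin E, MYC and NOTCH proteins, held the highest one, from 153332312 to 153333024 on chromosome 4. Its folds were 46.41, 35.61 and 36.56 in si-FTO and 34.58, 31.76 and 32.61 in si-NC, with percentiles of 98.7 to 99.2 in si-FTO and 98.5 to 98.8 in si-NC, which overlapped. A second FBXW7 region, from 153242410 to 153244301, stood at percentiles of 91.8 to 94.9 in si-FTO and 92.3 to 97.2 in si-NC. The next adaptors by their lowest percentile over the 6 lists were FBXL12, FBXO5, FBXL19 and BTBD7. Among USP genes the order was led by USP8, USP42, USP7 and USP36, followed by USP6NL. The USP8 peak from 50773678 to 50774262 had folds of 37.4, 28.41 and 29.94 in si-FTO and 28.59, 21.75 and 27.18 in si-NC. USP42, which acts on p53, stood at percentiles of 96.2 to 97.8 in si-FTO and 97.3 to 98.6 in si-NC (chromosome 7, from 6193387 to 6194826). USP7, which spares MDM2 and p53 from degradation, stood at 97.3 to 98.9 in si-FTO and 95.1 to 98.1 in si-NC (chromosome 16, from 9057064 to 9057341). For USP42, USP7 and the nucleolar protease USP36 the groups overlapped. Neighbors in this order were not tested against each other.

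In each list the median interval of adaptor genes was longer than that of USP genes. The adaptor median was 834, 1043 and 1074 bp in si-FTO and 834, 1043 and 916 bp in si-NC, and that of USP intervals was 678, 611 and 633 bp in si-FTO and 666.5, 692 and 694 bp in si-NC. All peaks had medians of 656 to 684 bp in si-FTO and 667 to 694 bp in si-NC. Of 439 adaptor intervals 8.88% were over 3000 bp, of 237 USP intervals 2.53%, and of all 50501 intervals 5.96%, where the same site is counted in each list. The longest adaptor interval belonged to BTBD7, a gene of branching morphogenesis, at 5539 bp in si-NC replicate 3. The longest USP interval belonged to USP31, at 7062 bp in si-NC replicate 3, where it was 3726 and 3846 bp in si-FTO replicates 1 and 3 and 3754 and 3716 bp in si-NC replicates 1 and 2, so that the length belonged to 1 library. BTBD7 and USP32 had the most regions of their class, 5 each. Of the 40 adaptor regions in all 6 lists 27 had identical borders in each list, as had 18 of 24 USP regions and 3225 of 4737 in all.

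Genes with the si-NC pattern were also found among other cullin adaptors and other deubiquitinases. The cullin scaffolds and the NEDD8 cycle had too few listed genes for a comparison. Of 16 names of cullin scaffolds and their direct partners 6 had a peak, and of 22 names of the NEDD8 cycle and COP9 signalosome, which switch cullins on and off, 9 had one. None of these 15 genes was listed in every library of one group and absent from the other. Of all genes, 2.28% had that pattern in si-FTO alone and 2.75% in si-NC alone, so with 15 genes a count of 0 is near these shares. Of 38 names of other cullin adaptors 23 had a peak, with 1 in si-FTO alone (4.35%, beside 2.28% of all genes) and 4 in si-NC alone (17.4%, beside 2.75%). BTRC, the F-box protein that recognizes beta-catenin and I-kappa-B, was the one in si-FTO alone, at percentiles 15.6, 29.4 and 10.4 (chromosome 10, from 103312912). The 4 in si-NC alone were VHL, the CUL2 adaptor for hypoxia-inducible factors, DCAF7, KCTD17 and RHOBTB2. VHL stood at percentiles 42.9, 34.0 and 19.8, for the same interval from 10183330 to 10183871 on chromosome 3. Of 39 names of other deubiquitinases 27 had a peak, with 0 in si-FTO alone and 3 in si-NC alone (11.1%), JOSD2, MPND and STAMBPL1. Among 73 RNF and TRIM genes, which encode ligases that mostly do not need a cullin, 1 was in si-FTO alone (1.37%) and 4 in si-NC alone (5.48%), which can be read beside 1.43% and 12.9% of the adaptors. The differences between these sets, some of which are small, were not tested.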

How the data were processed

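Peak lists of the 6 m6A IP libraries were deposited by the authors with hg19 positions. Their identifiers carry the name MACS, the settings of which were not given in the sources used, while the processing notes of the submitters list CASAVA 1.8 and BWA. The deposited fold enrichment is a ratio of IP to input. The deposited score is 10 times the -log10 of the p-value, and the deposited FDR is in percent. In every list 1 line was emptied and not analysed here. Depth is unknown, since reads were not used. Starts, counted from 0 by the authors, were changed to count from 1.

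Genes were taken by name. Intervals that shared at least 1 bp were joined into regions, and the interval with the highest fold enrichment stood for a library. Percentiles are ranks within a list. Counts were made with Python 3.11.15 and pandas 2.3.3 and tested on simulated data. Each shared region was tested over the 6 libraries by exact permutation, two-sided. The members and lists were chosen with earlier results of these data known. Named genes are members with a peak in one group alone, up to 6 shared regions in each direction, the 5 strongest of each class, those with the longest interval or the most regions, and members of small counts; the other names beside these were chosen after their values were seen. The values of 1 member are not reported here. The alternatives tried were leaving out each replicate, stronger peaks, equal list length, a looser presence rule, a stricter joining of intervals, other measures of strength, and the replicate number as a block. The count without USP6NL was added after the data were seen. Sequence under the peaks and the position in the transcript were not analysed here, since no genome of this build was used.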

Additional observations from a re-analysis of the deposited data

How the results depend on the processing

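Leaving out a library only loosens the rule of all lists against none, so such counts can stay or grow and show no stability. They were 1 to 2 adaptor genes in si-FTO alone and 9 to 11 in si-NC alone. The shares of all genes also rose, to between 2.99% and 3.35% in si-FTO alone and between 3.76% and 4.39% in si-NC alone. Without 1 library, USP genes in si-FTO alone numbered 0 to 1 and in si-NC alone 0 to 0. The adaptor regions numbered 1 to 3 in si-FTO alone and 11 to 15 in si-NC alone, and the USP regions 2 to 4 and 1 to 3. Shared adaptor regions without overlap numbered 7 to 9 towards si-FTO and 12 to 13 towards si-NC, and USP regions 4 to 9 and 2 to 5, where fewer libraries make a lack of overlap more common. The shares of all regions without 1 library were not counted, so these region counts have no background beside them. USP33 was the gene added in si-FTO without si-NC replicate 1. The difference in adaptor genes per library was -12.7 to -9.67 and in USP genes -2.17 to -0.667. In the upper 75 percent of fold enrichment 1 USP gene, USP19, was in si-NC alone, since its si-FTO peaks stood at percentiles 12.9 and 12.5. At equal list length 1 USP region had the si-FTO pattern and 0 the si-NC pattern, and the share of all regions was not counted. With at least 2 of 3 libraries, 4 adaptor regions had the si-FTO pattern and 17 the si-NC pattern, 4 USP regions the si-NC pattern, and 2 genes of the other adaptors the si-FTO pattern. By the percentile of the score, shared adaptor regions towards si-FTO were 3, and USP regions were 2 towards si-FTO and 6 towards si-NC, the other order than by fold enrichment, where 15.1% and 27.4% of all shared regions were. In all, 135 of the values under an alternative stayed near the reported ones and 22 did not. A count stayed near if it was equal or within 1.5 times the reported count. A mean difference stayed near if it kept its sign and changed by less than the larger group SD. The values without 1 library are part of this tally, so it is no measure of stability. The cause of the 22 changes was not tested. Same-numbered libraries did not deviate together, with correlations of 0.0302, 0.0658 and -0.0614 over shared regions. With the replicate number as a block, the USP regions towards si-NC were 4, and the share of all regions was not counted. The unknown depth limits all counts, since a peak under the calling threshold is not listed.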

Other observations

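The names left out by their pathway annotation held one gene of the si-FTO direction. FBXW11, the F-box paralog of BTRC that also recognizes beta-catenin, had an interval on chromosome 5 from 171433462 in the 3 si-FTO lists, at percentiles 27.4, 68.2 and 41.5, and none in the si-NC lists. BTRC had the same pattern, so that both paralogs had a peak in every si-FTO library and in no si-NC library. FBXO2, the other name left out, had a single interval, in si-FTO replicate 1, at percentile 18.7. FBXW11 and BTRC were set side by side after their values were seen.

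KLHL25, a CUL3 adaptor known to act on ATP-citrate lyase and 4E-BP1, came near to the si-NC pattern. One of its regions on chromosome 15, from 86302744 to 86304242, stood at percentile 32.5 in si-FTO replicate 3, the one si-FTO list that held it. In si-NC replicates 1, 2 and 3 it stood at 66.2, 88.6 and 87.4. Another KLHL25 region, from 86311248 to 86313051, was listed in the same libraries. It stood at 34.0 in si-FTO replicate 3 and at 32.9, 59.0 and 49.8 in si-NC replicates 1, 2 and 3, which overlapped. USP33 came near to the si-FTO pattern, with the interval from 78193980 to 78194397 on chromosome 1 at percentiles 14.2, 12.9 and 8.85 in si-FTO and 0.362 in si-NC replicate 1 alone. Both genes were chosen after their values were seen.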
